A study of Homo sapiens with 10 samples.

Results

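Fibronectin and the genes of elastic fibres were followed in MRC5 cells, a human lung fibroblast line, whose medium came from A549 cells that were stretched or kept still. The set was chosen by name, with earlier results of these data known. It has 10 genes: FN1, ELN, FBN1, FBN2, FBLN1, FBLN5, EFEMP1, EFEMP2, MFAP2 and LTBP1. Of these, 8 were among the 14054 genes of the count table, matched by Ensembl identifier, and EFEMP1 and LTBP1 were not analysed here. A filter on low counts kept 7 of the 8. EFEMP2 was below it.

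Fibronectin is a secreted glycoprotein that cells stretch into fibrils through integrin receptors, and its fibrils are a scaffold on which collagen and other matrix proteins are laid down. Elastic fibres give lung tissue its recoil. They have a core of cross-linked elastin, on a sheath of fibrillin microfibrils, and fibulins and microfibril-associated proteins join the parts. Fibroblasts make both kinds of fibre, and more fibronectin is a familiar feature of activated fibroblasts in lung scarring.

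In 5 libraries the fibroblasts had received supernatant of mechanically stretched A549 cultures (stretch medium, title numbers 2, 4, 6, 8 and 10), and in the other 5 supernatant of cultures that were not stretched (static medium, title numbers 1, 3, 5, 7 and 9). A549 is a line from a human lung adenocarcinoma with features of alveolar epithelium. No other treatment is named for either group, and the labels disagree on the exposure, 24 hours in the sample descriptions and 6 hours in the design text. The study asks whether factors released by mechanically stretched epithelial cells act on fibroblasts. Nothing in the labels says that libraries came from separate cultures, so a p-value measures the spread between these libraries, which may be technical. In bulk RNA, a change in the RNA per cell cannot be told apart from a change in the mix of cells.

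Total counts ran from 4231653 to 8455073 per library. Libraries were made by multiplex PCR of short gene targets, so the level of one gene cannot be set against that of another, and values are compared between libraries for each gene alone. The 12 fibroblast markers examined were all above 10 CPM on average (CPM are counts scaled to a common library size by the TMM method). Of 22 epithelial and A549 markers 11 were in the table, and their summed CPM was 46.2 to 56.3 with stretch medium and 41.7 to 52.7 with static medium. KRT18 and KRT19 were above 10 CPM, and the lung lineage factor NKX2-1 and the surfactant genes looked for were not analysed here. Endothelial, leukocyte and smooth muscle markers also overlapped between the groups, with summed CPM of 48.4 to 68.5, 184 to 234 and 83.0 to 100.2 for the 3 lists with stretch medium and of 53.9 to 66.1, 195 to 210 and 70.4 to 97.2 with static medium. Above 10 CPM on average were TEK of the endothelial list, CD68 of the leukocyte list, and CNN1 and SMTN of the smooth muscle list. Every marker list thus held genes above this cut. The cut is the same for all genes and takes no account of differences between targets, so it does not tell which cell types were present. The part of other cells in the results was not tested.

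No gene of the set passed the threshold for a difference between the 2 media. In edgeR's quasi-likelihood test, fitted over 10968 genes, 0 of the 7 tested members had an adjusted p under 0.05, where the share of all genes tested was 0.0%. At an unadjusted p under 0.05 there was 1 of 7, FN1, or 14.3%, beside 16.4% of all genes, so the set held no more such genes than the table as a whole. DESeq2 called 0 of the 7 at an adjusted p under 0.05, and 2.51% of all genes, and limma-voom called 0 of the 7 and 1 gene of the table. The 5 stretch and 5 static libraries overlapped for each of the 7 members, while 3.72% of all genes had groups that did not overlap. The median log2 fold change, stretch minus static medium, was 0.17 over the 7 members and 0.00035 over all genes. The estimate was above 0 for 5 members, FN1, FBN1, ELN, FBLN1 and FBLN5, and below 0 for FBN2 and MFAP2. Over all genes 50.1% were above 0.

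**Figure D1:**
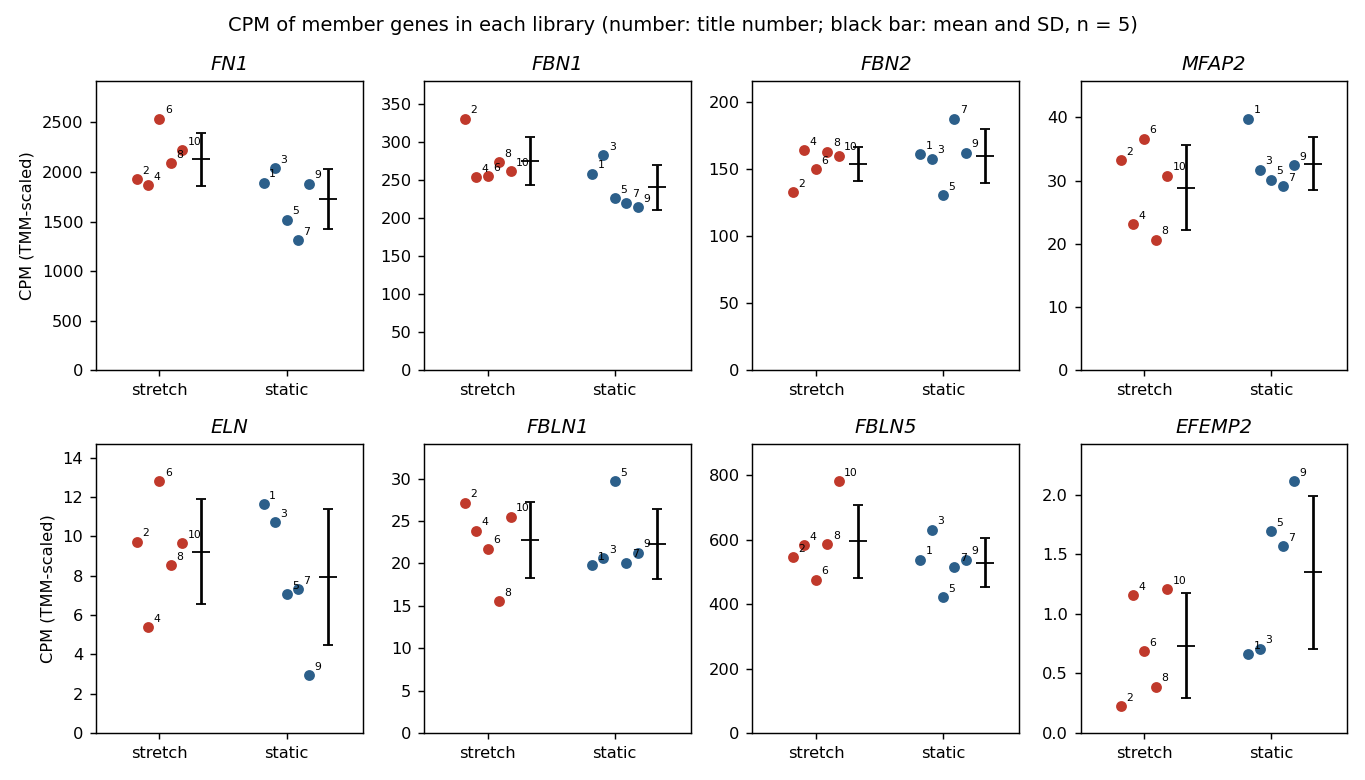
CPM (TMM-scaled, linear axes from 0) of the 8 genes in the table, one point per library marked with its title number, stretch medium on the left of each panel and static medium on the right, with the mean and SD of 5 libraries as a black bar. The groups overlap in every panel, and FN1 has its highest library at 2538 CPM with stretch medium and its lowest at 1314.5 CPM with static medium.

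FN1, which encodes fibronectin, came nearest to the threshold and was the only member whose 95% interval lay to one side of 0. The gene lies on chromosome 2, from 215360440 to 215436172 on the minus strand of GRCh38 (GENCODE release 29). With stretch medium it was at 1930.2, 1869.6, 2538, 2091 and 2223 CPM in libraries 2, 4, 6, 8 and 10, and with static medium at 1893, 2037, 1518, 1314.5 and 1884 CPM in libraries 1, 3, 5, 7 and 9. The 2 groups overlap between 1869.6 and 2037 CPM: stretch 6, 8 and 10 lay above every static library, static 5 and 7 lay below every stretch library, and the others were mixed. The means were 2130.1 ± 266 CPM with stretch medium and 1729 ± 301.0 CPM with static medium (SD, n = 5 each). This is a 1.23-fold difference with an interval of 1.03 to 1.48, or a log2 fold change of 0.30 ± 0.12 (standard error; edgeR unadjusted p = 0.0279, adjusted p = 0.252). Counts of FN1 were 8530 to 18445 per library, so counting alone gives an error of at most 1.08% of a value, far under the coefficient of variation between libraries, 12.5% with stretch medium and 17.4% with static medium. The estimate was 0.22 without static 7, 0.23 without stretch 6, 0.26 without static 5 and 0.28 without stretch 10, and in each of these fits the unadjusted p was above 0.05 (edgeR adjusted p from 0.337 to 0.460). The table gives 1 count per gene and does not tell the splice forms of fibronectin apart.

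The 250 bases before the start of FN1 are shown because FN1 is the member nearest to a change, and those of FBN2, a member with an estimate near 0, stand beside them. FBLN1, with a smaller estimate than FBN2, also had a window, which is not shown. Both are from RefSeq on GRCh38.p14, minus strand, at chr2:215436069-215436318 for FN1 and chr5:128538246-128538495 for FBN2, written 5′ to 3′ with the base next to the start last. The RefSeq starts differ from the GENCODE ones. The FN1 window lies partly, and the FBN2 window wholly, inside the GENCODE span of its gene. Capitals mark matches, on either strand, to 4 motifs: the cyclic AMP response element or CRE, with the letters TGACGTCA, the box with the letters CCAAT, the TATA box with the letters TATAA, and the GC box with the letters GGGCGG. Some GC box matches overlap each other.
FN1: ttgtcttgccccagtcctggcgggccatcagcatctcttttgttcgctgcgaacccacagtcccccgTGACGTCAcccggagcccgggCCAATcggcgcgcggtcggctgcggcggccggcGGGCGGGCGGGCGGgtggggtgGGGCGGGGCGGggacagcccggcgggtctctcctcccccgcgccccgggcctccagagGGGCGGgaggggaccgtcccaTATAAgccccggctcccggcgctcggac
FBN2: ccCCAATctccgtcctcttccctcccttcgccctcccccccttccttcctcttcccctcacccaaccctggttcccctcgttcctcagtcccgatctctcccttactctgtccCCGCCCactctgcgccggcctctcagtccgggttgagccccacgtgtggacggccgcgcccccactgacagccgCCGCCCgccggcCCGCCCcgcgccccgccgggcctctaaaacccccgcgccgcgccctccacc
The FN1 window holds 1 CRE, starting 183 bases before the start, 1 CCAAT box 162 bases before it, 1 TATA box 28 bases before it and 6 GC boxes. The FBN2 window holds 1 CCAAT box, 3 GC boxes and none of the other 2 motifs. Among 35116 RefSeq windows of the same length, 1.65% hold a CRE, 32.0% a CCAAT box, 18.9% a TATA box and 42.6% a GC box. A CRE was also found in a window of LTBP1, and a TATA box in windows of FBLN5 and MFAP2. A match is a description of letters, and the counts above do not measure binding. A window was found for 8 of the 10 genes, and ELN had none in the table of windows.

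The genes of the microfibril scaffold gave small estimates in both directions. FBN1 encodes fibrillin-1, the main protein of microfibrils and the gene altered in Marfan syndrome (chromosome 15, 48408306 to 48645849). It was at 331, 254, 256, 274 and 262 CPM with stretch medium (libraries 2, 4, 6, 8 and 10) and at 258, 283, 226, 221 and 215 CPM with static medium (libraries 1, 3, 5, 7 and 9). All 5 stretch libraries lay above the static median of 226 CPM, but only stretch 2 lay above the highest static library, static 3. The means were 275 ± 32.0 CPM with stretch medium and 241 ± 29.3 CPM with static medium (SD, n = 5 each), with a log2 fold change of 0.19 ± 0.11 and an interval of -0.041 to 0.43 (edgeR adjusted p = 0.401). Without stretch 2, the library that stood apart from the other 4, the log2 fold change was 0.12. With the title number as a covariate it was 0.23 and the unadjusted p was 0.0372. Without static 3 it was 0.26 (unadjusted p = 0.0369).

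FBN2 encodes fibrillin-2, the paralogue best known from embryonic microfibrils (chromosome 5, 128257909 to 128659185). It was at 133, 164, 149, 163 and 159.5 CPM with stretch medium and at 161, 157, 130.4, 187 and 162 CPM with static medium. All 5 stretch libraries lay inside the range of the static libraries, which ran from static 5 to static 7. Its log2 fold change, -0.055 ± 0.11, had an interval from -0.29 to 0.18 (edgeR adjusted p = 0.844), which is a stretch to static ratio of 0.819 to 1.13. With 1 library left out, the estimate ran from -0.12 without static 5 to 0.010 without static 7. The ratio of FBN2 to FBN1 CPM in a library was 0.401 to 0.643 with stretch medium and 0.555 to 0.849 with static medium, and 4 of the 5 stretch libraries were inside the static range. The exception was stretch 2, which had the highest FBN1 value and the second-lowest FBN2 value of the 10 libraries.

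MFAP2 encodes microfibril-associated glycoprotein-1, a small protein bound to fibrillin microfibrils (chromosome 1, 16974502 to 16980835). It was at 33.3, 23.1, 36.6, 20.7 and 30.7 CPM with stretch medium and at 39.8, 31.7, 30.1, 29.1 and 32.5 CPM with static medium. Stretch 4 and 8 lay below every static library, and the other 3 stretch libraries were within the static range. The log2 fold change was -0.17 ± 0.16, interval -0.52 to 0.17 (edgeR adjusted p = 0.618). The estimate was -0.28 without stretch 6, and nearer to 0 without stretch 4 (-0.11), static 1 (-0.099) or stretch 8 (-0.072).

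ELN encodes tropoelastin, the soluble precursor of the elastin core (chromosome 7, 74027789 to 74069907). It was measured with few counts, 18 to 93 per library, so that counting alone gives an error of up to 23.6% of a value. It was at 9.73, 5.39, 12.8, 8.53 and 9.64 CPM with stretch medium and at 11.6, 10.7, 7.07, 7.31 and 2.92 CPM with static medium. The ranges overlap widely, and the lowest value of the 10 was that of static 9. Its log2 fold change of 0.23 ± 0.29 had an interval from -0.39 to 0.84 (edgeR adjusted p = 0.731), the widest interval of the 7 members. Without static 9 the log2 fold change was 0.021, and without stretch 6, the highest library, it was 0.073. It was larger without stretch 4 (0.37), static 3 (0.37) or static 1 (0.38), and 0.39 with the title number as a covariate. As a ratio of stretch to static medium the interval runs from 0.765 to 1.79.

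The fibulins, calcium-binding glycoproteins that link elastin to microfibrils and basement membranes, did not differ beyond the spread between libraries. FBLN5 encodes fibulin-5, which binds integrins and is needed for elastic fibre assembly in mice (chromosome 14, 91869412 to 91947987). It was at 546, 584, 476, 587 and 781 CPM with stretch medium and at 538, 632, 422, 517 and 539 CPM with static medium. Stretch 10 was above every static library, static 5 was below every stretch library, and the rest overlapped. The log2 fold change was 0.17 ± 0.13, interval -0.11 to 0.45 (edgeR adjusted p = 0.552). Without stretch 10 the log2 fold change was 0.050, and without static 5 it was 0.097.

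FBLN1 encodes fibulin-1, a partner of fibronectin and elastin in the matrix (chromosome 22, 45502238 to 45601135). It was at 27.2, 23.9, 21.7, 15.5 and 25.5 CPM with stretch medium and at 19.8, 20.6, 29.7, 20.1 and 21.3 CPM with static medium. Its log2 fold change of 0.020 ± 0.17 had an interval of -0.34 to 0.38 (edgeR adjusted p = 0.967). Static 5 stood apart, with the other static libraries at 21.3 CPM or less, and without it the estimate was 0.15. In 6 of the 10 fits that leave out 1 library, and in limma-voom, the sign turned (-0.050 to 0.15 over the 10 fits, and -0.0056 in limma-voom).

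EFEMP2 encodes fibulin-4, which brings lysyl oxidase to elastin (chromosome 11, 65866441 to 65873592). It had 1, 6, 5, 3 and 6 counts with stretch medium and 3, 6, 11, 12 and 13 counts with static medium, or 0.732 ± 0.441 CPM with stretch medium and 1.35 ± 0.639 CPM with static medium (SD, n = 5 each). Of the 10 libraries 3 had 3 counts or fewer. Static 5, 7 and 9 lay above every stretch library, while static 1 and 3 were inside the stretch range. When all genes of the table entered the fit, its log2 fold change was -0.89 ± 0.48 (edgeR unadjusted p = 0.0776, adjusted p = 0.420). Exons of EFEMP2 overlap those of MUS81 on the opposite strand by 11 bases, exons of ELN overlap ELN-AS1 by 165 and exons of FBN2 overlap SLC27A6 by 56, and the use of strand in counting is not given in the sources used here. If strand was not used, reads from such stretches could not be told apart, and whether any short target lies in them is not given.

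**Figure D2:**
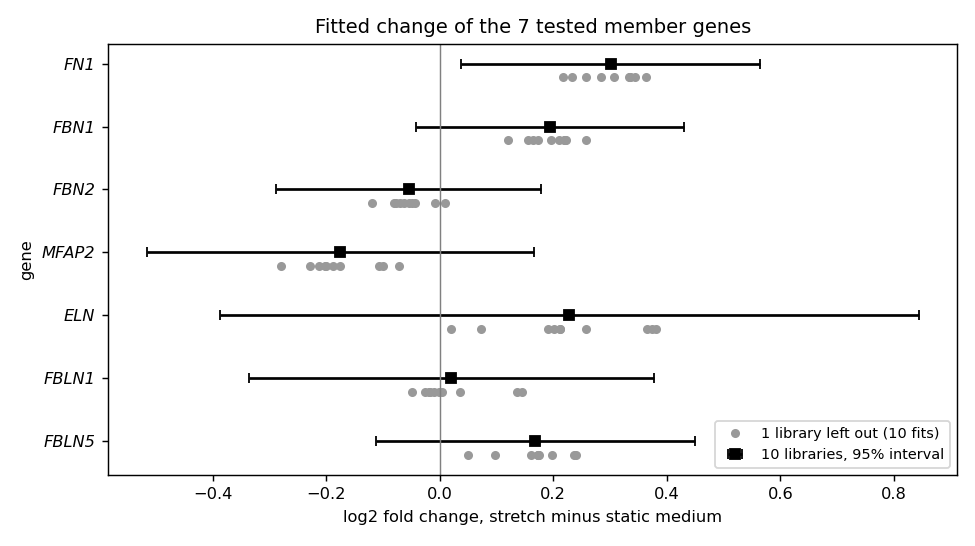
Log2 fold change, stretch minus static medium, of the 7 tested genes: black squares with 95% intervals are the edgeR fit to 10 libraries, and grey points the 10 fits that leave out 1 library each. The interval of FN1 runs from 0.037 to 0.56 and those of the other 6 genes span 0, with the widest for ELN.

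Across the 10 libraries the members did not move as 1 unit. Stretch 10 was above the 10-library mean of log2 CPM for 7 of the 7 genes and static 3 for 6, whereas static 5 and static 7 were each above it for 1. Stretch 6 had the highest FN1 and ELN values of all libraries but lay below the mean for FBN1, FBN2, FBLN1 and FBLN5. Among the 21 pairs of tested members, Pearson's r of log2 CPM over 10 libraries ran from -0.66 to 0.59 with a median of 0.039, 12 above 0 and 9 below. After Benjamini-Hochberg adjustment over the 21 pairs, 0 passed 0.05 by a permutation test with 100000 resamples, by r or by Spearman's rho.

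The strongest pair was FBN2 with FBLN1, at r = -0.66 (two-sided permutation p = 0.0384, adjusted p = 0.778) and rho = -0.64 (p = 0.0540, adjusted p = 0.259). With each group centred on its own mean r was also -0.66. Without stretch 2 and static 5, the 2 libraries farthest from the median of FBN2 and those with its lowest values, r was -0.16, so the relation rests on those libraries, and leaving them out also narrows the range of FBN2. FBN1 and ELN, the scaffold and the core of elastic fibres, had r = 0.59 (permutation p = 0.0751, adjusted p = 0.778), rho = 0.62 (p = 0.0600, adjusted p = 0.259), 0.46 without the 2 farthest libraries and 0.56 with each group centred on its own mean. FN1 and FBN1 had r = 0.49 (permutation p = 0.153, adjusted p = 0.778) and rho = 0.62 (p = 0.0606, adjusted p = 0.259), and r was 0.46 without the 2 farthest libraries and 0.23 with groups centred. FN1 and ELN had r = 0.38 (permutation p = 0.273, adjusted p = 0.778) and rho = 0.66 (p = 0.0426, adjusted p = 0.259), with r = 0.29 both without the 2 farthest libraries and with groups centred. All of these share the same libraries, depth and scaling.

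**Figure D3:**
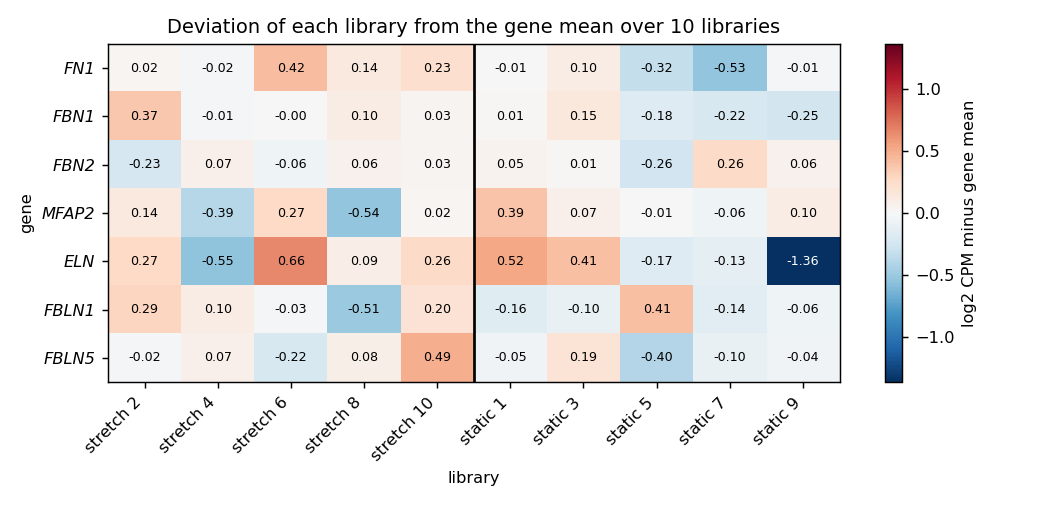
Log2 CPM of the 7 tested genes in each library minus the gene's mean over 10 libraries, stretch medium left of the black line and static medium right of it, red above and blue below the mean. The lowest cell is ELN in static 9, at -1.36, and no column is of 1 colour except stretch 10.

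The profiles most like FN1 over the 10 libraries, among 10961 other tested genes, were those of ACP6, a lysophosphatidic acid phosphatase (r = 0.98, rho = 0.95), BTN3A2, a butyrophilin (r = 0.97, rho = 0.98), and CLUH, which binds mRNAs of mitochondrial proteins (r = 0.96, rho = 0.81). BTN3A2 averaged 37.7 ± 22.8 CPM with stretch medium and 8.74 ± 8.28 CPM with static medium (SD, n = 5 each; edgeR adjusted p = 0.124). Those most like ELN were TPR, a nuclear pore protein (r = 0.93, rho = 0.85), TMLHE, of carnitine synthesis (r = 0.93, rho = 0.90), and KCNT2, a potassium channel (r = 0.92, rho = 0.88). These 6 were picked as the highest of many values, so no p is given.

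Among genes whose products meet fibronectin or elastic fibres, several of the fibronectin receptors and partners had small p-values in opposite directions. Of 24 such receptors and assembly partners 20 were tested, and 0 passed over all genes. At an unadjusted p under 0.05, 5 were higher and 2 lower, where 8.08% of all genes were higher and 8.37% lower. Together they are 35.0% of the tested genes of the list, beside 16.4% of all genes. This list and those below were chosen with earlier results of these data known, so such shares are a description and no test of a list. The higher count was 2 without stretch 6, 3 without static 7, static 9 or stretch 10, and 6 without static 3 or stretch 4. It was 4 in DESeq2, with upper-quartile scaling, or without static 1, static 5, stretch 2 or stretch 8. The lower count was 1 without static 7 or static 9. It was 3 with upper-quartile scaling, in limma-voom, or without static 1, static 3, stretch 2 or stretch 4. The median log2 fold change of the list was 0.078. Only TNC passed in DESeq2. The 5 with higher estimates were TNC, THBS1, ITGA5, ITGB3 and PXN, and the 2 with lower ones ITGB1 and ITGAV. ITGB3, PXN, ITGAV and, further on, PLAUR fell outside the rule for named genes and are named after their values were seen.

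The main fibronectin receptor is the pair of ITGA5 and ITGB1, the alpha and beta chains of integrin α5β1. ITGA5 was at 811, 591, 918, 677 and 816 CPM with stretch medium and at 680.0, 725, 550.4, 496 and 549.5 CPM with static medium. Its log2 fold change was 0.35 ± 0.13 (edgeR unadjusted p = 0.0193, adjusted p = 0.222), and the unadjusted p was above 0.05 without stretch 6 or without static 7. ITGB1 was at 86.7, 102.8, 60.3, 93.0 and 88.4 CPM with stretch medium and at 104, 97.8, 119, 149 and 109 CPM with static medium, a log2 fold change of -0.43 ± 0.14 (edgeR unadjusted p = 0.00874, adjusted p = 0.167). The groups overlap for both chains. Stretch 6, the library with the most FN1, had the most ITGA5 and the least ITGB1, and static 7, with the least FN1, had the least ITGA5 and the most ITGB1. These 2 libraries are among the deeper ones, with 7441130 and 7752333 counts. Static 3, with 8455073 counts, was deeper than both, and stretch 8, with 7724512, was deeper than stretch 6. Their FN1 values, 2037 and 2091 CPM, were neither the highest nor the lowest. The part of depth was not tested.

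ITGAV, the alpha chain of receptors that bind fibronectin and latent TGF-beta, had a log2 fold change of -0.25 ± 0.10 and groups that did not overlap, as 3.72% of all genes had (edgeR adjusted p = 0.236). ITGB3, a beta chain that pairs with it, had 0.61 ± 0.25 (edgeR adjusted p = 0.248). Groups did not overlap for 2 of the 20 tested genes of this list, ITGAV and PLAUR. PLAUR was higher with stretch medium, with a log2 fold change of 0.15 ± 0.090 (edgeR unadjusted p = 0.124, adjusted p = 0.437). TNC, the glycoprotein tenascin-C that binds fibronectin and loosens adhesion, was at 91.2, 58.3, 98.2, 54.5 and 77.8 CPM with stretch medium and at 44.8, 59.0, 41.4, 35.2 and 51.6 CPM with static medium. Static 3 was above stretch 4 and 8 and the other static libraries were below every stretch library. The interval of its log2 fold change, 0.71, was 0.34 to 1.08 (edgeR adjusted p = 0.109, DESeq2 adjusted p = 0.0125). THBS1, thrombospondin-1, had 0.45 ± 0.17 (edgeR adjusted p = 0.208), but 0.28 without stretch 10 (edgeR unadjusted p = 0.0727).

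Of 15 other microfibril and elastic fibre glycoproteins 8 were tested, and 1, MFAP4, had an unadjusted p under 0.05, or 12.5% beside 16.4% of all genes. Without static 9 or stretch 10 there were 2. MFAP4, a microfibril-associated glycoprotein that binds tropoelastin and fibrillin, was at 428, 297, 321, 334 and 377 CPM with stretch medium and at 251, 258, 309, 196 and 246 CPM with static medium. Every stretch library but stretch 4 was above every static library, and static 5 was above stretch 4. The means were 351 ± 51.6 CPM with stretch medium and 252 ± 40.4 CPM with static medium (SD, n = 5 each), 1.39-fold, with an interval of 1.16 to 1.68. The adjusted p was 0.119 in edgeR, which did not pass, and 0.0268 in DESeq2, which did. The latent TGF-beta binding proteins LTBP2, LTBP3 and LTBP4 had log2 fold changes of 0.087, 0.21 and -0.014 with intervals that spanned 0. The list's median was 0.11.

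Genes for elastin cross-linking, chaperones and microfibril regulation, 18 tested of 24, had a median of 0.020, with 2 higher and 0 lower at an unadjusted p under 0.05 and 0 past the threshold over all genes. The 2 are 11.1% of the list, beside 16.4% of all genes, and were FURIN and GLB1. GLB1 had an unadjusted p above 0.05 with upper-quartile scaling, the stricter filter, the title number as a covariate, or with static 1, 5 or 7 or stretch 2, 6, 8 or 10 left out. FURIN, a protease that trims fibrillin precursors, had a log2 fold change of 0.39 ± 0.13 (edgeR adjusted p = 0.167), and GLB1, the lysosomal galactosidase gene that also encodes an elastin-binding splice form, 0.22 ± 0.10 (adjusted p = 0.294). The cross-linker genes LOX and LOXL1 had 0.17 and 0.12, with intervals of -0.044 to 0.38 and -0.20 to 0.44. A list of 8 latent TGF-beta genes, labelled partners of LTBP1 although not all bind it, had 7 tested. Their median was 0.086. At an unadjusted p under 0.05, 2 (28.6%) were higher, where 8.08% of all genes were higher. The 2 became 1 in limma-voom, with the stricter filter (which left out LRRC32), or without static 1, static 7, stretch 2, stretch 4 or stretch 6, 0 without stretch 10 and 3 without static 3. They were THBS1, which stands in 2 lists, and LRRC32, a surface anchor of latent TGF-beta, at 3.37 ± 1.36 CPM with stretch medium and 1.80 ± 0.602 CPM with static medium (SD, n = 5 each; edgeR adjusted p = 0.266, limma-voom adjusted p = 0.407). LRRC32 had 4 to 27 counts per library, a counting error of up to 50% of a value, and DESeq2 gave it no adjusted p. TGFB1, TGFB2 and TGFB3 had 0.086, 0.081 and 0.066, with intervals that spanned 0.

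A list of 23 proteases, labelled as those that cut elastin, fibrillin or fibronectin, had 15 tested. Whether each of them cuts these proteins was not checked here. Their median was 0.022 and 0 were past the threshold over all genes. At an unadjusted p under 0.05, 3 were higher and 1 lower, beside 8.08% and 8.37% of all genes. Together they are 26.7% of the tested proteases, beside 16.4% of all genes. ADAMTS1, an aggrecanase, was at 136, 124, 128, 149 and 117 CPM with stretch medium and at 111, 94.8, 93.5, 70.4 and 109 CPM with static medium, so the groups did not overlap, as for 3.72% of all genes. Its log2 fold change was 0.45 ± 0.13 (edgeR adjusted p = 0.128, DESeq2 adjusted p = 0.0330). The collagenase gene MMP1 had 0.38 ± 0.12 (edgeR adjusted p = 0.159) and MMP14, a membrane-bound activator of other proteases, 0.23 ± 0.089 (edgeR adjusted p = 0.231). CTSK, the elastin-cutting cathepsin K, had -0.35 ± 0.17 (edgeR unadjusted p = 0.0490, adjusted p = 0.301), and -0.23 without static 9. Its unadjusted p was above 0.05 with DESeq2 size factors, with no filter, in DESeq2 and limma-voom, and without static 1, 7 or 9 or stretch 2, 6, 8 or 10, so that no protease was then lower, while 2 were without static 5.

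**Figure D4:**
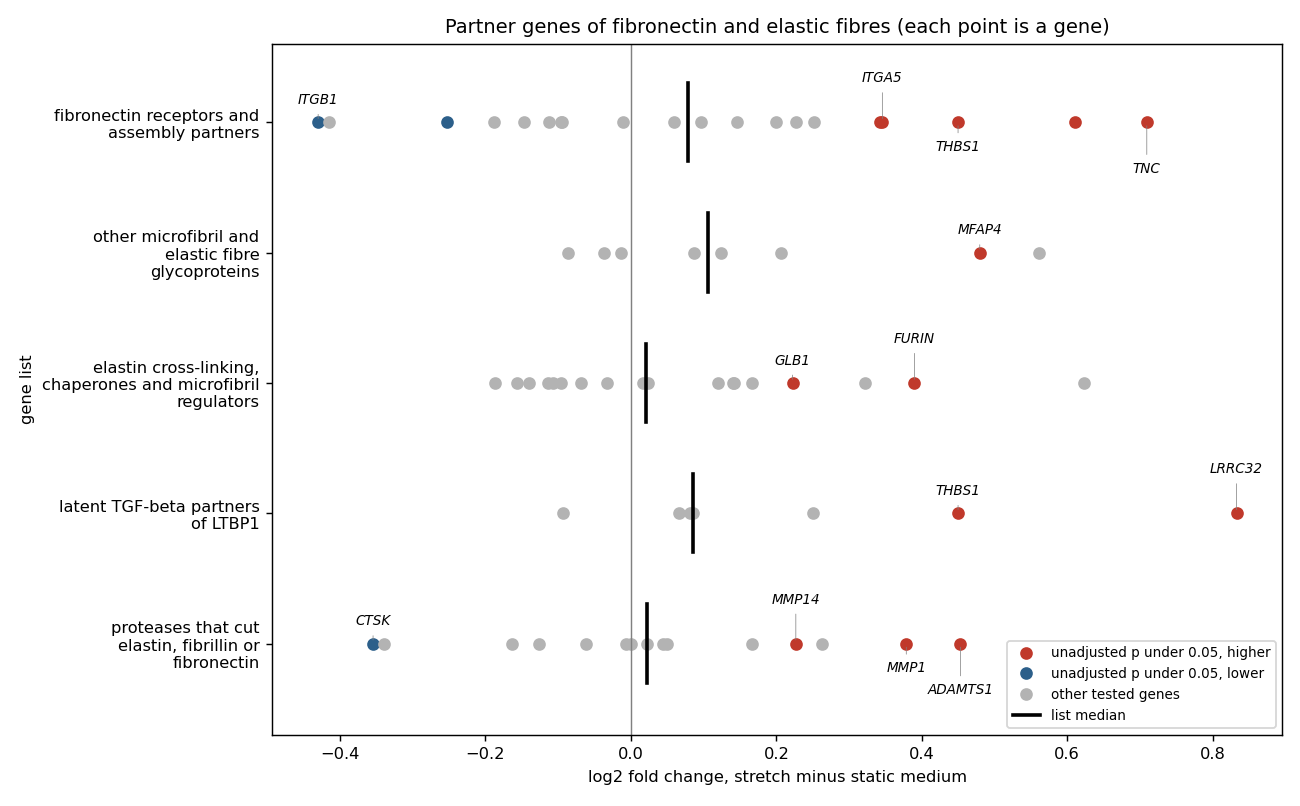
Log2 fold change, stretch minus static medium, of the tested genes in 5 lists of partner genes, one point per gene, red (higher) or blue (lower) at an unadjusted p under 0.05 and grey otherwise, with the list median as a black line and the genes named by rule labelled. List medians lie between 0.020 and 0.11, and the fibronectin receptors reach from -0.43 for ITGB1 to 0.71 for TNC.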

How the data were processed

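RNA of 10 MRC5 libraries was extracted with Trizol and made into libraries with an Ion AmpliSeq transcriptome kit, per the labels' protocols. fastp 0.20.1, Salmon 1.9 and the build hg38/GRCh38 are named in the submitters' processing notes, while what each tool did, and with which annotation, is not given in the sources used here. Whole-number counts per Ensembl gene, unscaled, were deposited by the authors in 1 table of 14054 genes, in which every gene was above 0 in at least 5 libraries. No molecular identifiers are mentioned, so errors from counting cover counting error only. Columns were matched to samples by title number, and 13831 identifiers had a symbol.

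The main test was edgeR 4.0.16 in R 4.3.3 (filterByExpr, minimum count 10, minimum total 15, TMM scaling, quasi-likelihood test, Benjamini-Hochberg adjustment over 10968 genes, threshold 0.05). Chi-square per degree of freedom was 5.75 to 23.0 over the 20 within-group pairs of libraries, more than counting error gives, and no library was taken for a repeat deposit. Log2 CPM used a prior count of 2, intervals are 95%, and a floor of 3 counts was 0.354 to 0.679 CPM. Alternatives were other scalings, filters, a threshold of 0.1, DESeq2 1.42.0, limma-voom (limma 3.58.1), a title number covariate and each library left out. The genes, the 5 partner lists and the tests were chosen with earlier results of these data known. The text names all members, up to 4 genes per list by smallest unadjusted p under 0.05, and the 3 profiles most like FN1 and ELN. ITGB3, PXN, ITGAV, PLAUR, LOX, LOXL1, LTBP2, LTBP3, LTBP4, TGFB1, TGFB2 and TGFB3 are named outside this rule, after their values were seen. The stricter filter asked for 50 counts in 5 libraries.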

Additional observations from a re-analysis of the deposited data

Results flagged for a closer look

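In 38 groups of 5 libraries, for the 7 members and 12 partner genes named by rule, 3 held a library far from the other 4 by Dixon's test, which flags about 1 in 20 groups by chance. Stretch 2 had 331 CPM of FBN1, where the other stretch libraries had 254 to 274 CPM, and without it the log2 fold change was 0.12 in place of 0.19. Static 5 had 29.7 CPM of FBLN1, where the other static libraries had 19.8 to 21.3 CPM, and without it the log2 fold change was 0.15 in place of 0.020. Stretch 8 had 1.03 CPM of LRRC32, where the other stretch libraries had 3.66 to 4.62 CPM, and without it the log2 fold change was 1.10 (edgeR adjusted p = 0.195) in place of 0.83.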

How the results depend on the processing

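No member passed an adjusted p of 0.05, or of 0.1, in any alternative run, and the adjusted p of FN1 ranged from 0.163 to 0.460. Over all genes, edgeR called 0, DESeq2 275, limma-voom 1, and edgeR at a threshold of 0.1 called 61. With a library left out edgeR called 0 to 39 genes: 39 without stretch 4, 2 without stretch 6 and 1 without stretch 10. Members at an unadjusted p under 0.05 numbered 1, but 2 with the title number as a covariate and 0 to 2 with a library left out: 2 without static 3, and 0 without static 5, static 7, stretch 6 or stretch 10. Estimates of FN1, FBN1, ELN, FBLN5 and MFAP2 kept their sign in all 18 alternatives. That of FBLN1 was -0.0056 in limma-voom and -0.050 to 0.15 with a library left out, and that of FBN2 -0.12 to 0.010, above 0 only without static 7. The cause was not tested. Scalings moved the median of all genes by under 0.1 (log2). MFAP4, TNC and ADAMTS1 passed in DESeq2 only. Without stretch 6, 2 fibronectin receptors and partners in place of 5 were higher at an unadjusted p under 0.05. Without static 7, static 9 or stretch 10, 3 were, and without static 3 or stretch 4, 6 were. In DESeq2, with upper-quartile scaling, or without static 1, static 5, stretch 2 or stretch 8, 4 were. Low counts limit ELN, EFEMP2 and LRRC32. The labels name no pairs of libraries, so no paired analysis was run. Title numbers alternate between static and stretch medium, and whether neighbours were paired is not stated.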
